A study of Lotus japonicus with 12 samples.

Results

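The maturation of wild-type (WT) root nodules of the legume Lotus japonicus was followed by setting 3 RNA sequencing libraries of mature nodules, taken at 21 days post inoculation (dpi), against 3 libraries of young nodules, taken at 10 dpi. These 6 libraries are chosen by their labels alone, out of 12 in the series. The other 6 are of the cpop1 mutant, which the labels also name hemf2, at the same ages, 3 libraries each. The series title calls CPOP1 a heme synthesis enzyme. All plants were L. japonicus seedlings inoculated with the rhizobium M. loti MAFF 303099. The labels name no accession of the WT plants and no allele of the mutant, and they leave unsaid whether replicates are separate plants, pots or only separate libraries. The p-values below therefore measure only the spread between these libraries, which may be technical.

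A legume nodule begins as dividing root cortex cells that rhizobia enter through infection threads. As it matures, infected cells fill with bacteroids, the nitrogen-fixing form of the bacteria, and make leghemoglobin, a heme protein that keeps free oxygen low enough for nitrogenase while respiration goes on. Nodules of Lotus are determinate: their cell division stops early, so a mature nodule holds mostly differentiated cells, and ammonium made by the bacteroids is assimilated by the plant. Because whole nodules were sequenced, fewer cells of a type and less RNA per cell cannot be told apart.

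Values are FPKM, the fragments counted for a transcript divided by its length and by the library's fragment total. Features carry IDs beginning with LotjaGi or BGI_novel, and 0 of these IDs could be matched to names in the RefSeq gene table used here. Features are therefore given by ID, without roles, and the labelled tissue could not be checked against leghemoglobin or other nodule markers. Of 29531 rows, 19872 reached 1 FPKM in at least 3 of the 6 WT libraries and were tested. The depth in reads is unknown. A young library, WT 10 dpi replicate 3, stood apart: it differed at least 2-fold from replicate 1 in 31.4% of tested features and from replicate 2 in 29.1%, whereas replicates 1 and 2 differed so in 1.27%. Among the mature libraries the corresponding shares ran from 1.7% to 2.1%. Results are therefore given with and without it.

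FPKM were concentrated in fewer features in every mature library than in any young one. The 20 most abundant features of each library, ranked within it, held 27.1%, 28.0% and 25.6% of total FPKM at 21 dpi, against 21.1%, 21.1% and 15.8% at 10 dpi. Every mature library lay above every young one. The mean share was 26.9 ± 1.22% at 21 dpi and 19.3 ± 3.08% at 10 dpi (SD, n = 3 libraries each; two-sided exact permutation p = 0.1; no smaller p is possible with 3 libraries against 3). Without WT 10 dpi replicate 3, which stood lowest, the young mean was 21.1%. The number of features that together hold 50% of the FPKM was 287, 261 and 303 in mature nodules, against 453, 492 and 734 in young ones (exact p = 0.1). Replicate 3 was the highest of these young values, and the groups did not overlap with it or without it.

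**Figure D1:**
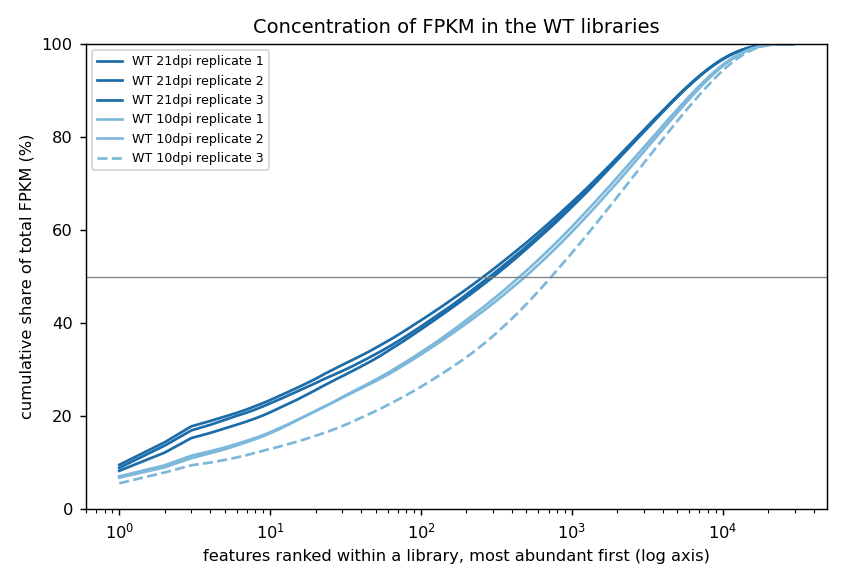
Cumulative share of total FPKM (y axis, %) over features ranked by level within each WT library (x axis, log scale), 1 line per library; the dashed line is WT 10 dpi replicate 3 and the grey line marks 50%. The mature libraries reach 50% with 261 to 303 features, the young ones with 453 to 734.

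Fewer features were detected in the mature libraries than in the young ones, whereas more stood at the top of the range. At least 1 FPKM was reached by 18575, 18486 and 18616 features at 21 dpi, against 19603, 19808 and 20623 at 10 dpi. At least 10 FPKM was reached by 9657, 9633 and 9751 mature features, against 10348, 10574 and 11543 young ones. At least 1000 FPKM was reached by 106, 98 and 110 features in mature nodules, against 90, 84 and 78 in young ones. None of these counts overlapped between the ages (exact two-sided permutation p = 0.1 for each). The number at 100 FPKM or more did overlap, with 1598, 1529 and 1643 at 21 dpi and 1527, 1523 and 1846 at 10 dpi (exact p = 1). Of the 20 features with the highest mean at each age, 15 were on both lists.

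The 3 most abundant features of the series led every WT library. The first of them stood at 97261, 103675 and 91133 FPKM at 21 dpi, against 66650, 69331 and 57638 at 10 dpi. Its log2 change was 0.60 with a standard error (SE) of 0.41 (limma adjusted p = 0.273). The next stood at 52516, 52922 and 43412 FPKM in mature nodules, against 21937, 23473 and 24053 in young ones (log2 change 1.09 ± 0.34, SE; limma adjusted p = 0.0259). The third had 35678, 37314 and 34437 FPKM at 21 dpi, against 19426, 20211 and 15932 at 10 dpi (log2 change 0.96 ± 0.29; limma adjusted p = 0.0226). Without WT 10 dpi replicate 3 the log2 changes were, in the same order, 0.52 ± 0.32, 1.12 ± 0.27 and 0.85 ± 0.22 (limma adjusted p = 0.205, 0.00577 and 0.00932). All 3 were higher in every mature library than in every young one. The pair that passed the test did not do so in all 10 fits described below.

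Between the ages, 7801 of the 19872 tested features changed (39.3%; limma on log2(FPKM + 1), threshold 0.05 on the Benjamini-Hochberg adjusted p). The fit took 1 variance per feature over all 12 libraries, cpop1 included. The median SD in log2 units was 0.385 in young WT and 0.148 in mature WT. It was 0.187 in young and 0.121 in mature cpop1. Calls, p-values and intervals may therefore understate the spread of young WT libraries. With cpop1 left out of the fit, 3870 features changed, 1279 higher and 2591 lower. Without WT 10 dpi replicate 3 as well, 9933 changed. Of the 7801, 2580 were higher (13.0%) and 5221 lower (26.3%) in mature than in young nodules. The rises had a median log2 change of 0.86 and the falls of -1.0. Over all tested features the median was -0.18, with quartiles of -0.68 and 0.27. At least 2-fold changes were called for 1026 features upward and 2615 downward, at least 8-fold changes for 79 and 155, and at least 32-fold changes for 3 and 9. For 9705 tested features (48.8%) the 95% interval of the change lay within 2-fold in either direction, and 1755 of these were among those called.

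Most of these counts moved when WT 10 dpi replicate 3 was left out. Without it, 9681 features changed (48.7%), 3430 of them higher (17.3%) and 6251 lower (31.5%). Of the features called with all libraries, 4884 falls and 2393 rises were called in the same direction without it, 337 falls and 187 rises were no longer called, and 0 changed direction. Another 1367 falls and 1037 rises were called only without it. Fewer of the calls were then large, with 990 rises and 2116 falls of 2-fold or more, 45 and 89 of 8-fold or more, and 3 and 4 of 32-fold or more. The interval lay within 2-fold for 12415 features (62.5%), 3721 of them called.

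The balance of rises and falls depended on how libraries were scaled, because FPKM are relative to the total of a library. As deposited, 33.1% of the changed features were higher at 21 dpi. It was 59.4% when libraries were shifted to the same median and 50.7% with quantile-normalized values. It was 22.4% when each library was scaled to the same total, and 32% when the total was taken without the 20 most abundant features. The median change over all features moved with it, from -0.29 under the common total to 0.13 under the common median. The 5 scalings, all of them relative, were each fitted with and without WT 10 dpi replicate 3, giving 10 fits. Features called in the same direction in all 10 fits formed a set less bound to the choice among these scalings. It held 1705 rises (8.58% of tested features) and 2815 falls (14.2%). Their median log2 changes were 1.05 and -1.35 with all libraries as deposited, and 0.94 and -1.09 without replicate 3. Of the 1026 rises and 2615 falls of at least 2-fold, 932 and 2242 belonged to it.

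Among features of this set with a LotjaGi ID and no LC suffix, 2 rises and 2 falls were named by a rule that ranks the smaller of the changes with and without replicate 3 and allows no overlap between the ages. Such a lack of overlap held for 10035 tested features (50.5%), so it is no finding for those named. LotjaGi2g1v0137400 stood at 1400, 5451 and 4668 FPKM in mature nodules, against 48.3, 80.4 and 350.3 FPKM in young ones. Every mature library lay above every young one, and replicate 3 was the highest of the young libraries. The log2 change was 4.88 ± 0.83 (limma adjusted p = 0.00143), and 5.70 ± 0.73 without replicate 3. LotjaGi1g1v0474900 stood at 144, 549 and 365 FPKM at 21 dpi, against 10.5, 8.24 and 24.5 FPKM at 10 dpi. Mature and young libraries lay far apart here too, with a log2 change of 4.46 ± 0.51 (limma adjusted p = 0.000147) and of 4.90 ± 0.48 without replicate 3.

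LotjaGi4g1v0026000 was among the most abundant transcripts of young nodules and was low in mature ones. It had 57.3, 80.3 and 61.4 FPKM at 21 dpi, against 3592, 3872 and 2571 FPKM at 10 dpi. The libraries of each age were close together, and the log2 change was -5.63 ± 0.33 (limma adjusted p = 2.17e-06), or -5.81 ± 0.34 without replicate 3. LotjaGi2g1v0052900 was listed at 0 FPKM in all 3 mature libraries, against 50.2, 44.9 and 69.9 FPKM in the young ones. Its limma adjusted p was 3.04e-07, and no fold is given against values listed at 0. The features named for the WT age change had to pass this test and were ranked by the size of the change. Their p-values are therefore no independent result.

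**Figure D2:**
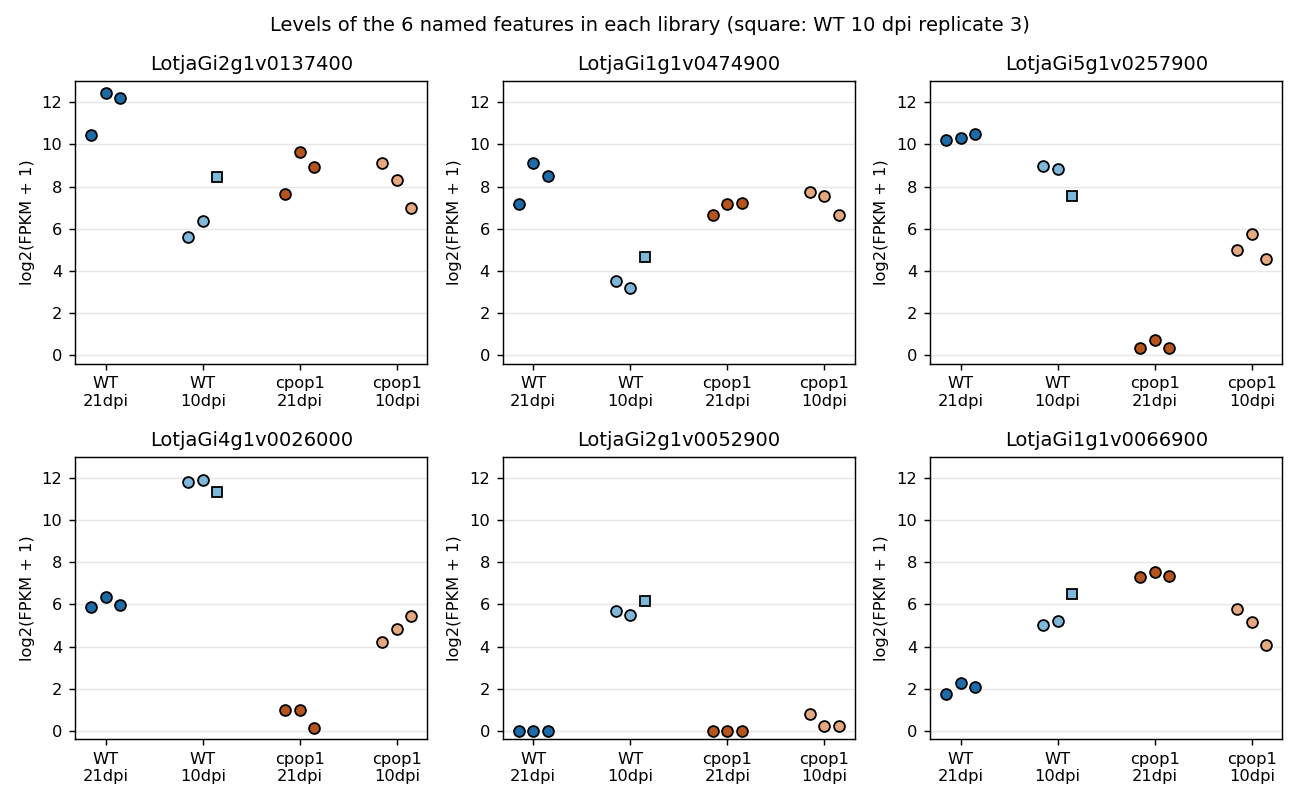
Level (y axis, log2(FPKM + 1)) of the 6 named features in every library, by group (x axis); each point is a library and the square is WT 10 dpi replicate 3. The 4 features at left and centre were named for the WT age change, with the rises above and the falls below; the rule took numbered LotjaGi models without LC and ranked them by the smaller of their changes with and without replicate 3, so features outside it changed more. The pair at right, LotjaGi5g1v0257900 and LotjaGi1g1v0066900, changed with age in opposite directions in WT and cpop1.

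Switches from off to on were few. Among all 29531 rows, 8 features were under 1 FPKM in every young library and at 5 FPKM or more in every mature one. Their highest mature mean was 26.5 FPKM. The reverse, at 5 FPKM or more in every young library and under 1 FPKM in every mature one, held for 48 features, with a highest young mean of 207.7 FPKM. That mean rested on replicate 3: the feature, LotjaGi1g1v0539200, had 13.89, 10.25 and 598.94 FPKM in the young libraries. Without WT 10 dpi replicate 3 the numbers were 11 and 59, and the highest young mean was 48.0 FPKM. Of those 59, replicate 3 had 5 FPKM or more for 48 and less than 1 FPKM for 2. In mature cpop1 nodules, 16 of the 48 features switched off in WT were at 5 FPKM or more in every library and 13 were under 1 FPKM in every library. The corresponding shares over all features were not computed, so these counts are no finding about the 48.

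Rises and falls were found at different levels of expression. Split by the mean over the 6 WT libraries, features of 2 to 5 FPKM were called higher in 10.1% and lower in 33.4% of 3795 tested. Features of 5 to 20 FPKM were higher in 8.49% and lower in 29.8% of 6457. Between 20 and 100 FPKM the shares were 16.8% and 19.0% of 5633, and between 100 and 1000 FPKM they were 25.3% and 18.9% of 1551. Of the 91 features at 1000 FPKM and over, 32 were higher (35.2%) and 9 lower (9.89%). The median log2 change was -0.41 at 2 to 5 FPKM, -0.01 at 20 to 100 FPKM and 0.54 at 1000 FPKM and over, against -0.18 over all tested features. Without replicate 3 these medians were -0.32, 0.00 and 0.26. In the set called in all 10 fits, rises were 7.33% and falls 18.6% at 2 to 5 FPKM, against 22.0% and 6.59% at 1000 FPKM and over. The spread on a log scale and the pseudocount also act differently at different levels, and their part was not tested.

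**Figure D3:**
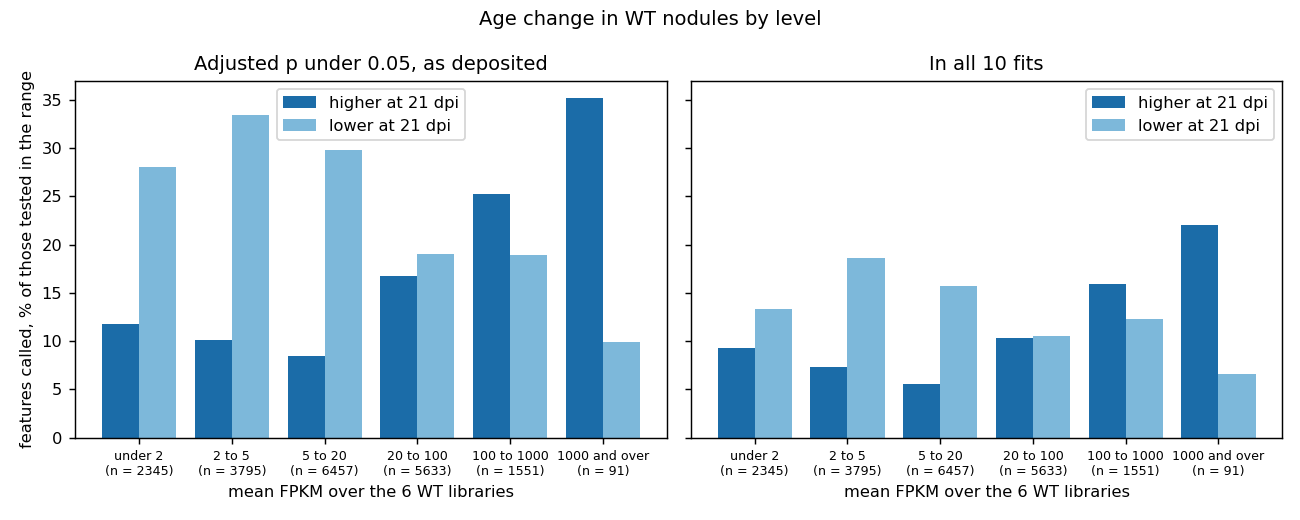
Features called higher or lower in mature than in young WT nodules (y axis, % of those tested in the range) by mean FPKM over the 6 WT libraries (x axis), as deposited at left and in all 10 fits at right. Falls outnumber rises below 20 FPKM, and rises outnumber falls from 100 FPKM up, in either panel.

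The summed level of the set called in all 10 fits describes how much of the transcriptome it took. Its 1705 rises held 16.6%, 16.9% and 17.2% of total FPKM in the mature libraries, against 8.70%, 8.64% and 6.45% in the young ones. Its 2815 falls held 3.81%, 3.90% and 4.02% in mature libraries, against 10.9%, 11.1% and 19.4% in young ones. These values follow from how the set was chosen and carry no test. Replicate 3 lay beyond its young replicates in either direction. Of the summed difference in means, the 10 features that gained most made 24.9% of the gain, and the 10 that lost most made 15.9% of the loss.

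IDs carry the only annotation available. For gene models without a suffix, the digit in the ID is taken here as the chromosome. On chromosomes 1 to 6, 10.5% to 12.2% were higher and 28.0% to 30.6% lower in mature nodules. IDs beginning with BGI_novel had a larger share of rises, 477 higher (18.9%) and 387 lower (15.4%) of 2519 tested. Models with the suffix LC had 321 (14.9%) and 420 (19.5%) of 2157. Without replicate 3 the shares were 20.4% and 24.3% for BGI_novel and 16.5% and 32.3% for LC, against 17.3% and 31.5% over all features. The balance in these classes moved with that library, in which BGI_novel features held 3.30% of total FPKM and LC models 6.03%. The other 5 WT libraries had 4.77% to 5.09% and 5.04% to 5.39%. Of the models whose IDs carry the letter C or M in place of a chromosome number, 22 and 15 were tested, and 2 and 3 rose while 2 and 0 fell, against 13.0% higher and 26.3% lower over all features.

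Features next to each other in ID order had only weakly related age changes. Over 15145 pairs of neighbouring tested models on the numbered chromosomes, the log2 changes had a Pearson correlation of 0.075, which was 0.034 at 2 places apart and 0.002 at 50 places. Without replicate 3 the neighbours had 0.070. These are correlations across genes of the same libraries, and genes are not independent replicates. Runs of 3 or more neighbours falling in all 10 fits numbered 72, with 234 models, and runs of rises numbered 14, with 45. Over all these models 16.3% fell and 7.43% rose in all 10 fits, and the next neighbour fell too for 18.9% of the falls and rose too for 10.5% of the rises. The longest run of falls had 6 models, whose log2 changes lay between -2.17 and -1.33, and the longest run of rises had 5, with log2 changes between 0.69 and 1.66.

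The place of WT 10 dpi replicate 3 along maturation was read from features changed at least 2-fold in the fit without it. On a scale where 0 is the mean of replicates 1 and 2 and 1 the mean of the mature libraries, its median position was -0.04 over 990 rises, with quartiles of -0.56 and 0.64. Over 2116 falls the median was -0.29, with quartiles of -0.88 and 0.31. It lay more than 0.5 toward the mature side for 29.2% of the rises and 17.9% of the falls. It lay more than 0.5 to the opposite side for 26.7% of the rises and 39.8% of the falls. The library thus spread widely to either side of its replicates, and for falls it stood more often further from the mature state than they did. These positions use values as deposited. There the median level of tested features was 13.43 FPKM in replicate 3, against 10.76 and 11.44 FPKM in replicates 1 and 2. The part of this shift in the positions was not tested. Across tested features its log2(FPKM + 1) correlated with the mature libraries at 0.747 to 0.764, whereas replicates 1 and 2 did so at 0.916 to 0.921.

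**Figure D4:**
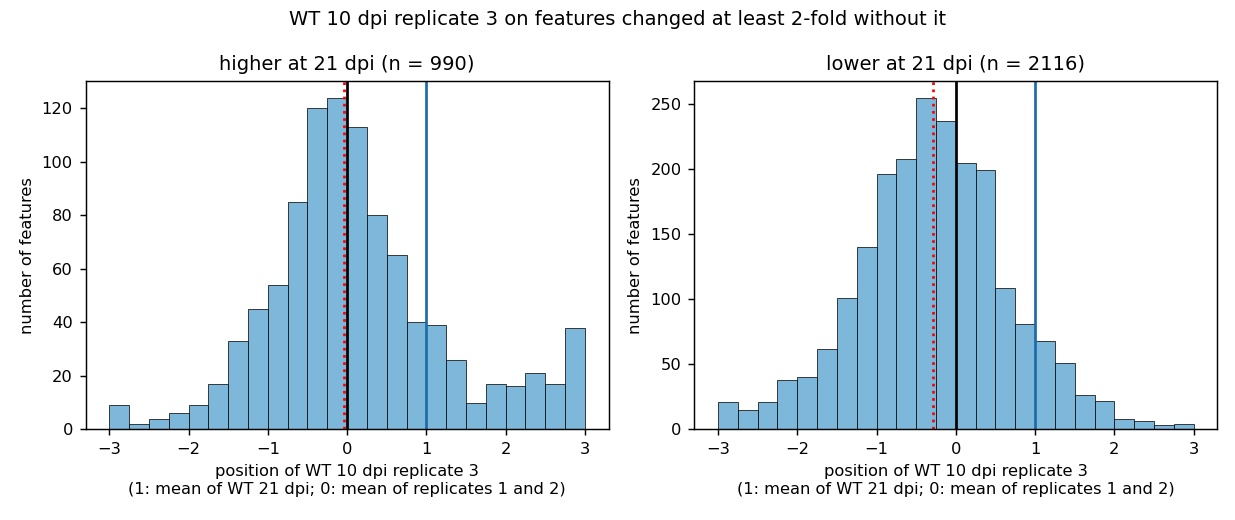
Number of features (y axis) by the position of WT 10 dpi replicate 3 (x axis) between the mean of replicates 1 and 2 (black line, 0) and the mean of WT 21 dpi (blue line, 1), for features changed at least 2-fold without that library; the red dotted line is the median and values beyond 3 in size are drawn at the edge. Medians lie at -0.04 for the 990 rises and -0.29 for the 2116 falls.

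The ageing of cpop1 nodules, which shares no library with that of WT, shows how far these changes went along in the mutant. Over the same 19872 features 5806 changed with age in cpop1 (29.2%), 1519 higher (7.64%) and 4287 lower (21.6%). Of the 1705 rises of WT called in all 10 fits, 357 rose in cpop1 (20.9%) and 196 fell (11.5%). Of the 2815 falls, 1143 fell in cpop1 (40.6%) and 135 rose (4.80%). The median log2 change of the WT rises was 0.09 in cpop1, and that of the falls was -0.56, against -0.19 over all tested features. These cpop1 calls and medians use values as deposited only. The rises held 7.19% to 7.50% of total FPKM in mature cpop1 libraries, against 6.63% to 7.06% in young cpop1 libraries, and these ranges did not overlap. The falls held 8.97% to 9.80% in mature cpop1 libraries, against 14.5% to 16.4% in young ones. These shares are of a total that the 3 most abundant features of each library filled to 29.6% to 31.6% in mature cpop1 libraries. In young cpop1 libraries they filled 12.2% to 14.6%. The 20 most abundant held 36.1% to 38.2% in mature and 18.9% to 21.3% in young cpop1 libraries, so concentration with age was not particular to WT.

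**Figure D5:**
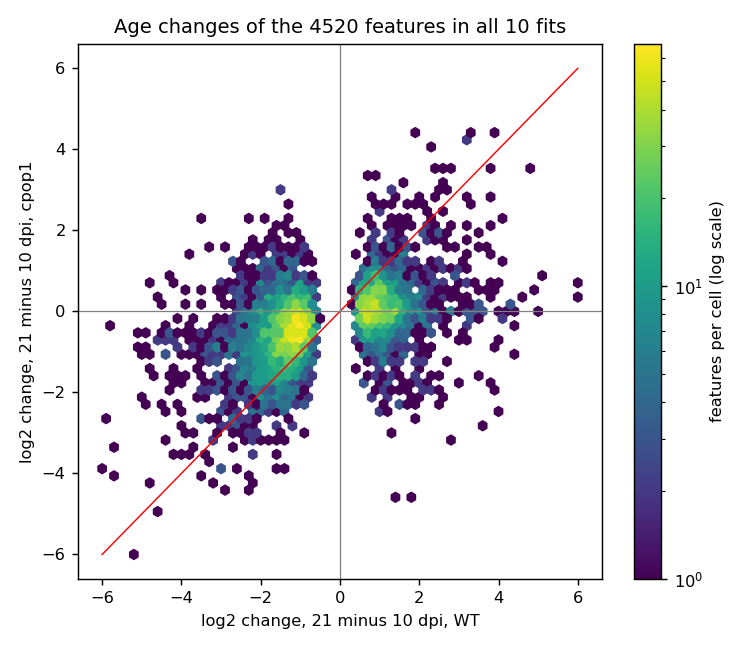
Log2 change from 10 to 21 dpi in WT (x axis) and in cpop1 (y axis) of the 4520 features called in all 10 fits; colour gives features per cell on a log scale, the red line marks equal changes, and values beyond 6 in size are drawn at the edge. The gap at the centre comes from the choice of features. The WT rises centre on a median of 0.09 in cpop1 and the falls on -0.56, against -0.19 over all tested features.

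The difference of the age changes was tested itself, as WT minus cpop1. It passed for 4224 features (21.3%; limma interaction, adjusted p under 0.05), and for 2782 of the 7801 features changed in WT (35.7%). The WT change enters both the choice of these features and the difference, so the higher share among them is no independent result. For 1211 of the 2580 WT rises the difference passed, and it was positive for 1172 of them. For 1571 of the 5221 WT falls the difference passed, and it was negative for 1463. The sign concerns the age changes, not the levels, and the choice of features by their WT change also favours it. Without WT 10 dpi replicate 3 the difference passed for 7752 features (39.0%) and for 4981 of the 9681 then changed in WT (51.5%). Without WT 21 dpi replicate 3 it passed for 1775 of the 5802 then changed in WT, and the share over all features was not computed.

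LotjaGi5g1v0257900 rose in WT, with 1184, 1255 and 1428 FPKM in mature nodules against 508, 454 and 187 in young ones. In cpop1 it had 0.26, 0.65 and 0.26 FPKM at 21 dpi, against 30.6, 52.4 and 22.9 FPKM at 10 dpi. The log2 change was 1.87 ± 0.37 in WT and -4.64 ± 0.37 in cpop1, a difference of 6.51 ± 0.52 (limma adjusted p = 4.2e-05), or 6.05 without replicate 3. LotjaGi1g1v0066900 fell in WT to 2.37, 3.86 and 3.21 FPKM at 21 dpi, against 31.3, 36.0 and 90.4 FPKM at 10 dpi. In cpop1 it had 156, 184 and 162 FPKM in mature nodules, against 54.7, 35.0 and 15.9 FPKM in young ones. Its difference was -5.92 ± 0.63 (limma adjusted p = 0.000217), or -5.45 without replicate 3. Both features were chosen for passing this test and for the size of the difference, so these p-values are no independent result.

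The features named for the WT age change behaved differently from each other in the mutant. LotjaGi2g1v0137400 was at 200.4, 784 and 484 FPKM in mature cpop1 nodules, against 559, 319 and 127 FPKM in young ones, and these overlapped. LotjaGi1g1v0474900 was at 97.8, 141 and 149 FPKM in mature cpop1 nodules, against 210.4, 188 and 98.9 FPKM in young ones, which also overlapped. LotjaGi4g1v0026000 fell with age in cpop1 as well, to 0.99, 1.0 and 0.11 FPKM at 21 dpi, against 17.6, 27.1 and 43.0 FPKM at 10 dpi (log2 change -4.11 ± 0.33; limma adjusted p = 2.04e-05). LotjaGi2g1v0052900 was listed at 0 FPKM in the mature cpop1 libraries and stood at 0.75, 0.18 and 0.18 FPKM in the young ones.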

How the data were processed

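The deposited table holds FPKM of 12 root nodule libraries, as the file header names the unit, computed by the authors. The submitters' processing notes list HISAT and Bowtie2 2.2.5 without saying what each did. Genome build, annotation and FPKM software: not given in the sources used here. Columns were tied to samples through the descriptions in the labels. The table pairs no ID with a name; 2 IDs occurred on 4 rows, which were kept apart. FPKM totals of the WT libraries, 985272 to 1107291, are not read depths, and the read depth is unknown: low values step alike in all 6 libraries (most frequent ratio to a common library 1.00 to 1.04).

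Features at 1 FPKM or more in at least 3 of the 6 WT libraries were fitted as log2(FPKM + 1) over all 12 libraries, 1 mean per group, with limma 3.58.1 in R 4.3.3 (eBayes with an intensity trend). This scale understates the change of low features. P-values were adjusted by Benjamini-Hochberg over all tested features, with a threshold of 0.05. The code was tested on simulated data that had the same spread in all groups. That test cannot show how the fit behaves when spreads differ between groups, as they do here. Descriptions and permutation tests used SciPy 1.17.1, pandas 2.3.3 and NumPy 2.4.6 under Python 3.11.15, and plots matplotlib 3.10.9.

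The comparison, its features and the tests were chosen with earlier results of these data known. Named for the age change are the 2 rises and 2 falls with the largest changes, by the smaller value with and without WT 10 dpi replicate 3. They come from numbered LotjaGi models without LC, called in all 10 fits, with a mean of at least 5 FPKM at the higher age and no overlap of the WT libraries. Named for the difference from cpop1 are the rise and the fall with the largest difference among such features. Both had to pass the test of the difference with and without WT 10 dpi replicate 3, with the sign of the WT change. Gene lists by symbol could not be applied. The 3 most abundant features are described because of their level. Alternatives were other pseudocounts, filters, scalings, variance models and library weights, the WT libraries alone, a replicate block, and each of the 12 libraries left out in turn.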

Additional observations from a re-analysis of the deposited data

Results flagged for a closer look

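The test of the difference between the WT and the cpop1 age change singled out 2782 of the features changed in WT. Each of the 6 named features also passed this test, which is no independent result. LotjaGi5g1v0257900 and LotjaGi1g1v0066900 were chosen by passing it. The features named for the WT age change were chosen by a value that is part of the difference. The difference, WT minus cpop1 on the log2(FPKM + 1) scale, was 6.51 for LotjaGi5g1v0257900, 4.77 for LotjaGi1g1v0474900 and 4.30 for LotjaGi2g1v0137400. It was -5.92 for LotjaGi1g1v0066900 and -1.51 for LotjaGi4g1v0026000. For LotjaGi2g1v0052900 it was -5.35, a value that depends on the pseudocount because the mature libraries are listed at 0. The difference of LotjaGi4g1v0026000 had a limma adjusted p of 0.0401 and was no longer called in 14 of 24 alternatives. With a pseudocount of 0.1 it was -0.20 (limma adjusted p = 0.883). The difference of LotjaGi2g1v0137400 (limma adjusted p = 0.0271) was no longer called in 6 of 24 alternatives, in which 1 library each was left out, with a limma adjusted p of up to 0.0681. The other 4 differences were called in all 24 alternatives.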

How the results depend on the processing

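The count of changed features, 7801 (2580 higher, 5221 lower), was 3870 (1279 and 2591) in a fit to the 6 WT libraries alone. It was 9933 in that fit without WT 10 dpi replicate 3. The common median gave 4672 higher and 3191 lower, quantile normalization 3440 lower, and the filter at 5 FPKM 3334 lower. None of the 7801 features was called in the opposite direction in any alternative run. The set called in every scaling with and without replicate 3, 1705 rises and 2815 falls, became 927 and 1339 in the WT libraries alone. In the WT libraries without replicate 3, where it rests only on the 5 scalings without that library, it had 2667 rises. With library weights it had 4289 falls. Leaving out each of the 12 libraries in turn gave 5666 to 9681 changed features (1754 to 3430 higher, 3807 to 6251 lower). Of those then changed in WT, 1775 to 4981 differed from cpop1, against 5231 with library weights. In every scaling, leaving out a mature WT or a cpop1 library gave 1272 to 1789 rises and 2152 to 2833 falls. Leaving out WT 10 dpi replicate 3 gave 2444 and 3966, from only the 5 scalings without it. No such count is given for leaving out WT 10 dpi replicate 1 or 2. The fits that also lack replicate 3 then hold 1 young WT library. The library weights stopped before their convergence tolerance, so the values that use them are uncertain. The share of the 20 most abundant features was 7.57 percentage points higher at 21 than at 10 dpi, and 5.79 to 8.47 points higher without single libraries. Whether replicate numbers pair the WT libraries could not be settled from these values. Same-numbered libraries had deviations correlated at 0.134, 0.045 and 0.205, and those with different numbers at -0.226 to 0.12. Replicates 1 and 3 of 21 dpi correlated best with the same number at 10 dpi, whereas replicate 2 did so with replicate 1 (0.109). The replicate block gave 7676 changed features with all libraries; in the 6 WT libraries alone the block gave 1284 (409 higher, 875 lower), with 368 rises and 485 falls in every scaling. LotjaGi5g1v0257900 alone among the named features then lost its call (limma adjusted p = 0.0621). The causes were not tested.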
